A study of Mus musculus with 6 samples.

Results

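The genes described here are 10 that encode proteins holding T cells back: Pdcd1 (PD-1), Lag3, Tigit, Ctla4, Cd160, Btla, Havcr2 (TIM-3), Cd244a (2B4), Cd200 and Entpd1 (CD39). Their rows were found by gene symbol, and all 10 symbols had one among the 27480 genes of the count table. The RNA was from OT1 CD8+ T cells: cytotoxic cells of mice with a T cell receptor transgene specific for an ovalbumin (OVA) peptide. There were 3 libraries with the overexpression (OE) vector alone (vector) and 3 with overexpression of PTMA, which encodes prothymosin alpha, a small acidic protein of the nucleus. Genotype was given as WT and exposure to OVA peptide as 48 h for all 6, so antigen exposure and the receptor transgene were common to both groups. The labels name no promoter or delivery method for the construct, no age of the animals and no antigen-presenting cell, and they do not say whether replicates were separate animals or cultures. P-values are thus relative to the variation among these 6 libraries, part or all of which may be technical.

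Inhibitory receptors are induced when a T cell is activated and stay high where antigen persists, as in tumours and chronic infection. PD-1, BTLA and TIGIT carry tyrosine motifs in the cytoplasmic tail that recruit phosphatases such as SHP-1 (Ptpn6) and SHP-2 (Ptpn11), which blunt signals of the T cell receptor and CD28. CTLA-4 instead competes with CD28 for CD80 and CD86, LAG-3 binds MHC class II, and the CD39 enzyme degrades extracellular ATP on the way to adenosine. The label holds in a broad sense only: CD200 is the ligand of an inhibitory receptor, Cd200r1, CD39 is an enzyme, and 2B4 and CD160 can also activate.

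Total counts ran from 54989408 to 66767589 per library. Vector 3 stood somewhat apart from its group in chi-square per gene. That measure was 53.3 and 84.8 between vector 3 and the other vector libraries, 17.7 between vector 1 and vector 2, and 21.4 to 31.8 between PTMA libraries. In the SD of the log2 deviations from the group mean, vector 3 hardly differed, at 0.454 against 0.419 to 0.451 in the other libraries. Genes of the T cell receptor and CD8 were abundant in every library, with a sum over 7 genes of 4356 to 4933 CPM (counts scaled to a common library size) in vector and 4483 to 4800 CPM in PTMA. Ptma, the gene overexpressed, was at 848, 783 and 1146 CPM in vector 1 to 3 and at 1152, 1346 and 1272 CPM in PTMA 1 to 3. The groups did not overlap, with PTMA the higher, against 5.39% of all genes tested. The ratio was 1.36-fold, with a 95% interval of 1.10-fold to 1.67-fold (log2 fold change 0.44, SE 0.13). The unadjusted p was 0.009 and the adjusted p 0.951 (edgeR quasi-likelihood test), so the difference did not pass. Whether the construct's RNA is counted under the mouse gene was not tested. Ptma has near-identical pseudogenes, between which reads may be split.

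The receptor genes spanned a wide range of mRNA levels, and the order of the 10 was the same in both groups. Levels are compared in FPKM (fragments scaled by transcript length and library size), the scale corrected for gene length. Lag3 led with 443 ± 62.4 FPKM in vector and 446 ± 29.5 FPKM in PTMA (SD, n = 3 per group, here and below). Pdcd1 followed with 288 ± 21.7 and 295 ± 8.63 FPKM, and Tigit with 214 ± 9.28 and 224 ± 10.1 FPKM. By mean level these were numbers 77, 132 and 177 among the 16592 genes tested, so their messages ranked above at least 98.9% of them. A middle group held Cd160 (83.1 ± 3.90 and 86.6 ± 5.02 FPKM), Ctla4 (45.4 ± 2.83 and 44.7 ± 3.50 FPKM), Cd200 (31.9 ± 2.34 and 36.2 ± 1.38 FPKM) and Btla (22.1 ± 0.81 and 23.5 ± 1.31 FPKM).

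A step of 8.63-fold separated Btla from the next gene, Havcr2. Havcr2 stood at 2.88 ± 0.76 FPKM in vector and 2.40 ± 0.38 FPKM in PTMA, near the median of 3.10 FPKM over all genes tested. Cd244a (0.89 ± 0.07 and 0.75 ± 0.18 FPKM) and Entpd1 (0.64 ± 0.11 and 0.60 ± 0.11 FPKM) were the scarcest, and Lag3 exceeded Entpd1 715-fold over the 6 libraries. For every pair of neighbours from Lag3 to Cd244a, the ranges over the 6 libraries did not overlap. Cd244a and Entpd1 did overlap, with Cd244a above Entpd1 in 5 of 6 libraries. TIM-3, CD39 and 2B4, which are known as marks of late or terminal exhaustion, were thus the low end of the order, and PD-1, LAG-3 and TIGIT the high end.

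**Figure D1:**
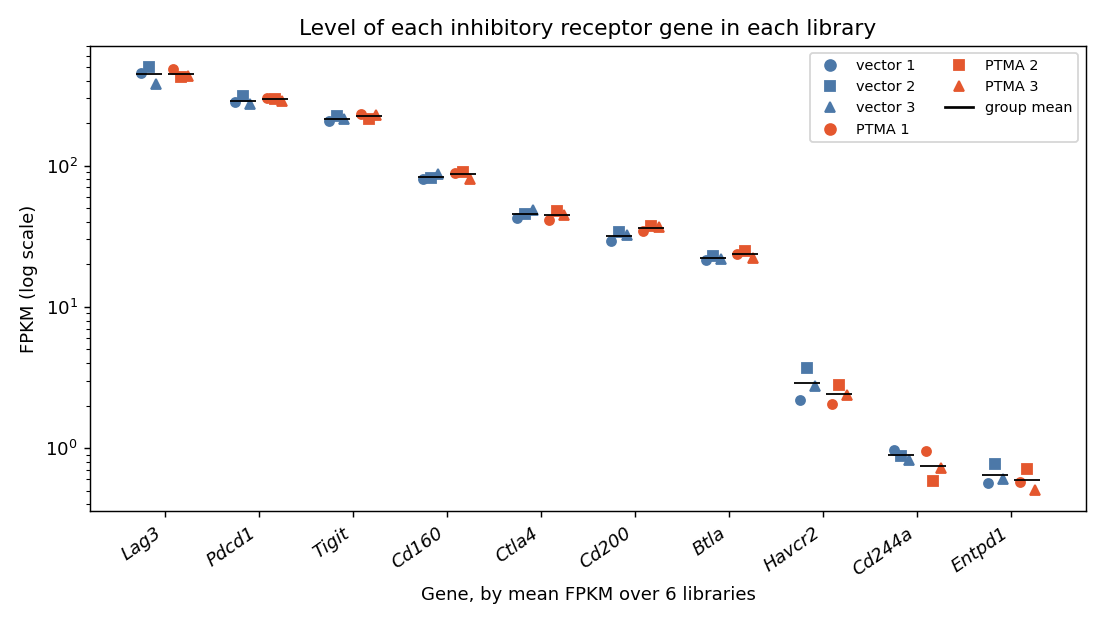
FPKM on a log axis (vertical) of the 10 genes (horizontal, by mean level) in each library, with vector in blue, PTMA in red, the replicate number as the symbol and the group mean as a black line. The points of both groups lie side by side for every gene, with a step of 8.63-fold between Btla and Havcr2.

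Promoter sequences of genes from both ends of that order are shown, since the level is the property in which the members differ most. Each is the 250 bases before the RefSeq start site on GRCm38.p6, 5′ to 3′ on the gene's strand. Capitals mark matches, on either strand, to 5 short motifs. The AP-1 motif, bound by Fos and Jun proteins after T cell activation, was searched as TGANTCA. The core of sites for NFAT, the factor that calcium signals bring to the nucleus, was searched as GGAAA. Of general promoter elements, the TATA box was searched as TATAAA and the GC box, to which Sp proteins bind, as GGGCGG. The cyclic AMP response element, to which CREB proteins bind, was searched as TGACGT. Where matches overlap or touch, they run together. Pdcd1 is from chr1:94052554-94052803 (minus strand), Tigit from chr16:43664185-43664434 (minus strand) and Havcr2 from chr11:46454681-46454930 (plus strand). For Tigit, the RefSeq start lies before the gene's start in the GENCODE annotation, 43664146. The stretch just after that RefSeq start was not found in a GENCODE transcript of Tigit.
Pdcd1: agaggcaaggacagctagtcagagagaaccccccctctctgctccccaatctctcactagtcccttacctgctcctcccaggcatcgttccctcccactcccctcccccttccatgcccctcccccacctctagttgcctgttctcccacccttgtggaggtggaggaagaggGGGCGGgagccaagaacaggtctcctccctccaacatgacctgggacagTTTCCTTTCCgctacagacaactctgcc
Tigit: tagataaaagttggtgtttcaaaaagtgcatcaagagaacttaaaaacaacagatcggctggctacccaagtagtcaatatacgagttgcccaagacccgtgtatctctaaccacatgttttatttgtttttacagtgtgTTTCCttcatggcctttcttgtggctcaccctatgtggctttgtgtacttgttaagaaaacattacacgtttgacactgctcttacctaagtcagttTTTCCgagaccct
Havcr2: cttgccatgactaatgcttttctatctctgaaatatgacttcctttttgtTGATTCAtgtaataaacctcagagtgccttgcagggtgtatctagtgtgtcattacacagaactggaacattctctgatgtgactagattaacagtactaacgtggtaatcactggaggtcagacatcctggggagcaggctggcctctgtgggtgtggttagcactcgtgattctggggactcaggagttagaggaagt
The windows of Pdcd1 and Tigit each held 2 matches to the NFAT core and none to AP-1, and that of Havcr2 held 1 match to AP-1 and none to the NFAT core. The matches did not follow the level: the NFAT core was also found in Ctla4, Cd160 and the scarce Cd244a and Entpd1, and not in Btla or Cd200. Windows of that length over 32851 RefSeq promoters held the NFAT core in 55.6% and the AP-1 letters in 6.75%. Of 11 windows for 9 of the 10 genes (Cd160 and Entpd1 have 2 each), 6 held the NFAT core and 2 the AP-1 letters, those of Havcr2 and Cd244a. None held the TATA box, which 12.4% of all windows do, 3 held the GC box, against 32.7%, and 2 held the cyclic AMP element, against 6.47%. No sequence is given for Lag3. These are matches of letters and not binding sites, and no factor was measured here.

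None of the 10 genes passed the test for a change between PTMA and vector, which does not show that they were unchanged. The same fit called 2 of 16592 genes (0.0121%; edgeR quasi-likelihood test, Benjamini-Hochberg adjusted p under 0.05), and the adjusted p of the 10 ran from 0.951 to 0.991. At an unadjusted p under 0.05 there was 1 of 10, Cd200, against 4.65% of all genes tested (1.92% higher and 2.72% lower with PTMA). DESeq2, which called 0.253% of its genes, also called 0 of the 10, and limma on log2(FPKM + 1), which called 0.00912%, called 0 of the 8 genes that reached a mean of 1 FPKM. All 10 passed the filter on low counts. Log2 fold changes were positive for 6 and negative for 4, with a median of 0.02, against 46.8% positive and a median of -0.02 over all genes tested. With libraries scaled to the same sum, 5 were positive and 5 negative.

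**Figure D2:**
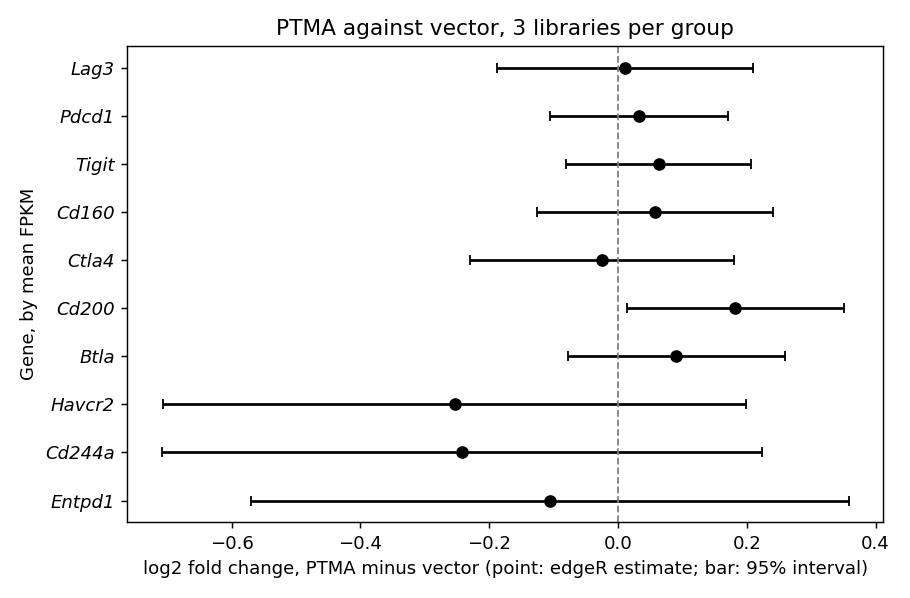
Log2 fold change, PTMA minus vector (horizontal), of each of the 10 genes (vertical, by mean level), as the edgeR estimate (point) with its 95% interval (bar). The interval of Cd200 alone lies to the right of 0, before adjustment over all genes, and those of Havcr2, Cd244a and Entpd1 are the widest.

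The precision differed between the abundant and the scarce members. For the 7 genes with a mean of at least 10 FPKM, counts per library ran from 4616 to 72983 and the standard error of the log2 fold change from 0.06 to 0.09. Their 95% intervals, which are not adjusted for the number of genes, lay within 0.853-fold and 1.28-fold. For Havcr2, Cd244a and Entpd1, counts ran from 199 to 692, the standard errors from 0.20 to 0.21 and the intervals within 0.612-fold and 1.28-fold. Replicates varied by 8.37% to 24.1% of the mean in these 3, against 4.45% to 6.40% that counting error alone gives, and by 1.42% to 10.5% in the other 7, against 0.39% to 1.36%. For Btla in vector the replicate spread of 1.42% was close to its counting error of 1.36%.

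Pdcd1 (ENSMUSG00000026285, chromosome 1, 94038305 to 94052553 on GRCm38, minus strand, 5 exons) encodes PD-1, the receptor of PD-L1 and PD-L2. It was at 609, 642 and 604 CPM in vector 1 to 3 and at 648, 644 and 605 CPM in PTMA 1 to 3. The groups overlapped: PTMA 3 lay between vector 3 and vector 1. PTMA was 1.02-fold vector, with a 95% interval of 0.929-fold to 1.13-fold (log2 fold change 0.03, SE 0.06; edgeR, adjusted p = 0.966).

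Tigit (ENSMUSG00000071552, chromosome 16, 43648867 to 43664146, minus strand, 4 exons) binds CD155 (Pvr) and CD112 (Nectin2) in competition with the activating CD226. Its values were 212, 219 and 226 CPM in vector and 237, 220 and 230 CPM in PTMA. All 3 PTMA libraries lay above the vector mean, but PTMA 2 lay below vector 3. The ratio was 1.04-fold, with an interval of 0.946-fold to 1.15-fold (log2 fold change 0.06, SE 0.06; edgeR, adjusted p = 0.952).

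Btla (ENSMUSG00000052013, chromosome 16, 45224315 to 45252892, plus strand) and Cd160 (ENSMUSG00000038304, chromosome 3, 96798763 to 96829351, minus strand) share a ligand, the herpesvirus entry mediator encoded by Tnfrsf14. Btla was at 82.4, 83.1 and 84.7 CPM in vector and 88.8, 94.8 and 82.9 CPM in PTMA. The vector libraries were close together, and PTMA 1 and PTMA 2 lay above all of them while PTMA 3 lay among them (ratio 1.06-fold, interval 0.947-fold to 1.20-fold; edgeR, adjusted p = 0.952). Cd160 was at 238, 229 and 267 CPM in vector and 261, 268 and 235 CPM in PTMA. Each group held both high and low libraries, and vector 3 reached the level of PTMA 2 (ratio 1.04-fold, interval 0.916-fold to 1.18-fold; edgeR, adjusted p = 0.956). Cd160 shares 68 exonic bases with Pdzk1, a scaffold protein gene on the opposite strand, and reads there cannot be assigned without strand. Ctla4, Cd244a and Entpd1 overlap other genes with 0 exonic bases in common.

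Lag3 (ENSMUSG00000030124, chromosome 6, 124904361 to 124911705, minus strand, 9 exon blocks) lies at the other extreme of level from the scarce genes. It was at 1080, 1118 and 913 CPM in vector and 1124, 1006 and 1005 CPM in PTMA. The lowest and the second highest value both belonged to vector, and the group means of 1037 ± 109 and 1045 ± 68.7 CPM were nearly equal (ratio 1.01-fold, interval 0.878-fold to 1.16-fold; edgeR, adjusted p = 0.991). The sign of its log2 fold change of 0.01 turned with the scaling, to -0.02 with libraries scaled to the same sum.

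Ctla4 (ENSMUSG00000026011, chromosome 1, 60887000 to 60915832, plus strand), the competitor of CD28, was at 112, 112 and 130 CPM in vector and 106, 126 and 115 CPM in PTMA. Vector 3 was the highest and PTMA 1 the lowest of the 6 (ratio 0.983-fold, interval 0.853-fold to 1.13-fold; edgeR, adjusted p = 0.981). Regulatory T cells also express much Ctla4 and Tigit. Their defining factor Foxp3 was at 0.0929 to 0.214 CPM in vector and 0.0913 to 0.293 CPM in PTMA, from 6 to 19 counts per library, where a count of 0 allows 0.0449 to 0.0546 CPM (3 counts per library, counting error only). The list of 5 genes of CD4 and regulatory T cells summed to 13.3 to 18.1 CPM in vector and 14.8 to 16.1 CPM in PTMA, with none at 0.

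Cd200 (ENSMUSG00000022661, chromosome 16, 45382135 to 45409053, minus strand, 7 exon blocks) was the one member whose groups did not overlap. It was at 109, 119 and 125 CPM in vector and 128, 139 and 134 CPM in PTMA, so PTMA 1, the lowest of its group, was still above vector 3, the highest of the other. Groups without overlap, with PTMA the higher, occurred in 5.39% of the genes tested, 5.38% had none with PTMA the lower, and 10.8% in either direction, so 1 of 10 members is near the background. The means were 118 ± 7.77 and 134 ± 5.63 CPM, a ratio of 1.13-fold with an interval of 1.01-fold to 1.28-fold (log2 fold change 0.18, SE 0.07). The unadjusted p was 0.037 and the adjusted p 0.951 (edgeR), so the difference did not pass. The log2 fold change was lowest without vector 1, at 0.13, and highest without vector 3, at 0.23 (adjusted p = 0.214).

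Mature dendritic cells also express Cd200, and some of their genes had higher values in the same libraries. Of 10 markers of these cells 9 were tested, with 5 positive and 4 negative log2 fold changes (the latter Zbtb46, Il4i1, H2-DMb2 and Cd83). There were 3 of 9 higher in PTMA without overlap, against 5.39% of all genes: the chemokine gene Ccl22 (0.709 to 2.09 CPM in vector, 5.86 to 8.42 CPM in PTMA), the actin bundler Fscn1 (0.0806 to 0.339 and 1.51 to 1.82 CPM) and Cacnb3 (0.232 to 0.387 and 1.25 to 2.37 CPM). None of them passed the test (smallest adjusted p = 0.199, edgeR). The list was chosen with earlier results of these data known, so its share is a description only. The whole list, in which Ccr7, which T cells also express, takes most of the counts, summed to 352 to 384 CPM in vector and 360 to 404 CPM in PTMA, and Ccl17 was at 0 in all vector libraries. Its part in the Cd200 values was not tested. In bulk RNA, a difference in the number of cells of a type and a difference in RNA per cell cannot be told apart.

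Havcr2 (ENSMUSG00000020399, chromosome 11, 46454935 to 46481255, plus strand, 7 exon blocks) encodes TIM-3, a receptor of galectin-9. It was at 6.70, 10.7 and 8.64 CPM in vector and 6.19, 8.58 and 7.09 CPM in PTMA. All 3 PTMA libraries lay below the vector mean of 8.69 ± 2.01 CPM, but the spread within vector alone, from 6.70 to 10.7 CPM, was wider than the difference to the PTMA mean of 7.29 ± 1.21 CPM. The ratio of 0.839-fold had an interval of 0.613-fold to 1.15-fold (log2 fold change -0.25, SE 0.20; edgeR, adjusted p = 0.952). Without vector 2, its highest library, the log2 fold change was -0.06, and without vector 1 it was -0.41.

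Cd244a (ENSMUSG00000004709, chromosome 1, 171559193 to 171609746, plus strand) encodes 2B4, whose ligand is CD48. It was at 5.30, 4.57 and 4.64 CPM in vector and 5.16, 3.21 and 3.89 CPM in PTMA. PTMA 1 lay within the vector range and the other PTMA libraries below it. The ratio of 0.845-fold had an interval of 0.612-fold to 1.17-fold (log2 fold change -0.24, SE 0.21; edgeR, adjusted p = 0.952). Without PTMA 1 the log2 fold change was -0.44 and without PTMA 2 it was -0.10.

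Entpd1 (ENSMUSG00000048120, chromosome 19, 40612366 to 40741602, plus strand, 17 exon blocks over 129 kb) encodes CD39. It was at 3.55, 4.55 and 3.90 CPM in vector and 3.57, 4.50 and 3.09 CPM in PTMA. PTMA 3 was below every vector library, and PTMA 1 and PTMA 2 lay within the vector range (ratio 0.929-fold, interval 0.673-fold to 1.28-fold; edgeR, adjusted p = 0.967).

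**Figure D3:**
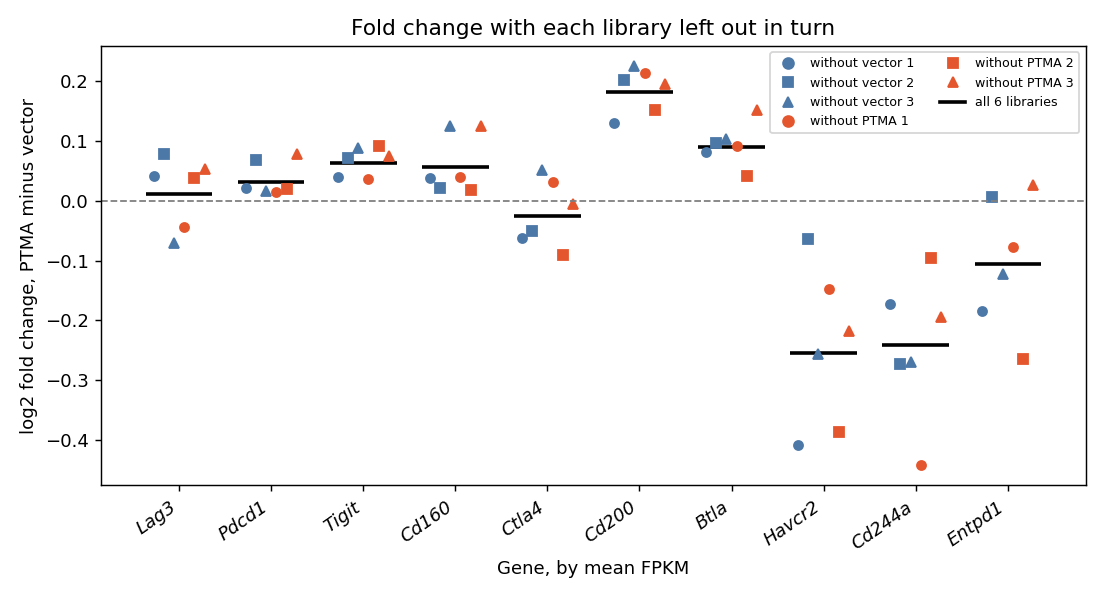
Log2 fold change, PTMA minus vector (vertical), of each gene (horizontal) with all 6 libraries (black line) and with each library left out in turn (points; colour gives the group and symbol the number of the library left out). Points cross 0 for Lag3, Ctla4 and Entpd1, those of Cd200 stay between 0.13 and 0.23, and those of Havcr2 spread from -0.41 to -0.06.

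The make-up of the receptor mRNA was close in both groups. Summed over the 10 genes, the level was 1119, 1224 and 1055 FPKM in vector and 1205, 1138 and 1133 FPKM in PTMA, and the PTMA libraries lay within the vector range. Lag3, Pdcd1 and Tigit together made up 83.4 ± 1.61% of that sum in vector and 83.2 ± 1.05% in PTMA. Lag3 alone took 40.7%, 40.7% and 35.6% in vector and 39.8%, 37.3% and 38.2% in PTMA, with vector 3 the lowest of the 6. Pdcd1 took 25.1% to 26.1% in every library, the steadiest share of the 3. Cd200 took 2.82 ± 0.24% in vector and 3.13 ± 0.22% in PTMA. Havcr2, Cd244a and Entpd1 each took at most 0.302% in any library. The ranges of the groups overlapped for the sum and for each of these shares, and no test was run on them.

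**Figure D4:**
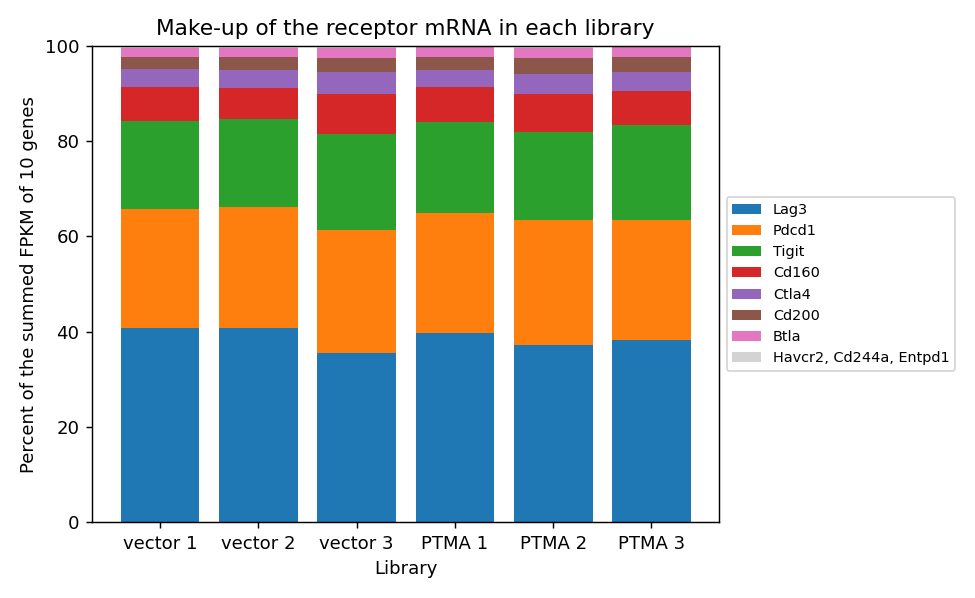
Share (percent, vertical) of each gene in the summed FPKM of the 10 genes, in each of the 6 libraries (horizontal). Lag3 takes 35.6% in vector 3 and 37.3% to 40.7% in the other libraries. Every bar is drawn in the same fixed order, with Havcr2, Cd244a and Entpd1 pooled in grey.

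The genes around the receptors gave the same picture: none of 99 tested genes in 5 lists passed the test in either direction (edgeR). An unadjusted p under 0.05 was found for 5 of the 99 (5.05%), against 4.65% of all genes. DESeq2 called 0 of the 99, and limma on log2(FPKM + 1) called 0 of the 84 that reached a mean of 1 FPKM. Without vector 3, which stood apart in chi-square per gene, 21 of the 99 (21.2%) had an unadjusted p under 0.05, against 15.4% of all genes. Again 0 passed. Of 21 ligands and partners 20 were tested, 10 of them positive and 10 negative (median log2 fold change -0.0042). There was 1 of 20 without overlap between groups (5.0%, against 10.8% of all genes). With libraries scaled to the same sum, 7 were positive and 13 negative. Lgals9, which encodes the TIM-3 ligand galectin-9, was at 127 ± 3.52 FPKM in vector and 139 ± 4.08 FPKM in PTMA (log2 fold change 0.14, SE 0.06, adjusted p = 0.951), without overlap between groups. Its level was far above that of its receptor gene Havcr2. Cd48, the ligand of 2B4, was the most abundant of the list, at 223 ± 17.9 and 225 ± 6.60 FPKM, likewise far above Cd244a. H2-Ab1, a chain of MHC class II, to which LAG-3 binds, was at 9.91 ± 1.11 and 11.4 ± 0.68 FPKM (edgeR, adjusted p = 0.951). Other class II chains in the list were scarcer. H2-Aa was at 0.08 ± 0.02 and 0.08 ± 0.10 FPKM, with 0 counts in PTMA 1, and H2-Eb1 at 0.88 ± 0.29 and 1.15 ± 0.37 FPKM. Nt5e (CD73), the enzyme that acts after CD39, was at 3.65 ± 0.34 and 3.90 ± 0.47 FPKM (adjusted p = 0.953). Nt5e, H2-Aa and H2-Eb1 were named after their values had been seen.

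Signalling genes downstream of the receptors had 14 of 23 positive and a median log2 fold change of 0.03, with a range of -0.47 to 0.14. With libraries scaled to the same sum, 12 were positive and 11 negative. Only Lck, higher in PTMA, had groups without overlap in CPM (1 of 23, or 4.35%, against 10.8% of all genes). SHP-1 (Ptpn6) was at 324 ± 27.9 and 345 ± 9.58 FPKM in vector and PTMA, and Lck, the kinase that starts signalling by the T cell receptor, at 463 ± 24.2 and 489 ± 14.6 FPKM. The phosphatase gene Ptpn2 had a log2 fold change of 0.14 (SE 0.09) and Pik3r1, a regulatory subunit of PI3 kinase, one of -0.18 (SE 0.09), each with an adjusted p of 0.951.

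Of 27 transcription factors known to act on these receptors or on exhaustion 26 were tested, 11 positive and 15 negative (median log2 fold change -0.02), and 3 had groups without overlap (11.5%, against 10.8% of all genes). With libraries scaled to the same sum, 7 were positive and 19 negative. Bhlhe40, a repressor induced by activation, was at 147 ± 3.57 CPM in vector and 128 ± 5.63 CPM in PTMA (log2 fold change -0.20, SE 0.07, adjusted p = 0.951). Eomes, a T-box factor of memory and exhausted cells, was at 38.9 ± 0.25 and 33.3 ± 2.53 CPM (log2 fold change -0.22, SE 0.09, adjusted p = 0.951). Each was lower in every PTMA library than in any vector library, and neither passed. The most abundant were Tcf7, the factor of stem-like T cells, at 214 ± 18.8 and 222 ± 11.1 FPKM, and Id3, at 173 ± 12.2 and 181 ± 4.48 FPKM. Tcf7 mRNA was thus close to the level of Tigit in these cells.

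The activating counterparts had 11 of 15 positive (median 0.04) and none without overlap, against 10.8% of all genes. With libraries scaled to the same sum, 8 of 15 were positive. Cd27 (222 ± 15.1 and 225 ± 4.09 FPKM) and the adhesion receptor Cd2 (187 ± 15.0 and 190 ± 11.1 FPKM) were the most abundant. Slamf6 and Tnfrsf4 (OX40) had the smallest p-values, each with a log2 fold change of 0.14 (SE 0.07). Of 20 further genes listed as inhibitory receptors 15 were tested, 6 positive and 9 negative (median -0.04). This list is broad and also holds Cd38 and cytokine receptor chains such as Il10ra. Groups were without overlap for 3 of the 15 (against 10.8% of all genes): Klrg1 and Pecam1 higher and Il10ra lower in PTMA. Cd96 (178 ± 6.06 and 181 ± 7.48 FPKM) and Klrc1, which encodes the NKG2A receptor (177 ± 20.1 and 167 ± 7.70 FPKM), lay between Tigit and Cd160 in level. Klrc1 has close paralogs, between which reads may be split. Il10ra, the receptor chain for interleukin 10, was at 86.4 ± 10.4 and 70.5 ± 6.13 CPM, lower in PTMA without overlap (log2 fold change -0.29, SE 0.11, adjusted p = 0.951). Klrg1, a mark of terminal effector cells, rested on 9, 8 and 7 counts in vector and 26, 24 and 15 in PTMA (log2 fold change 1.32, SE 0.58, adjusted p = 0.951).

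**Figure D5:**
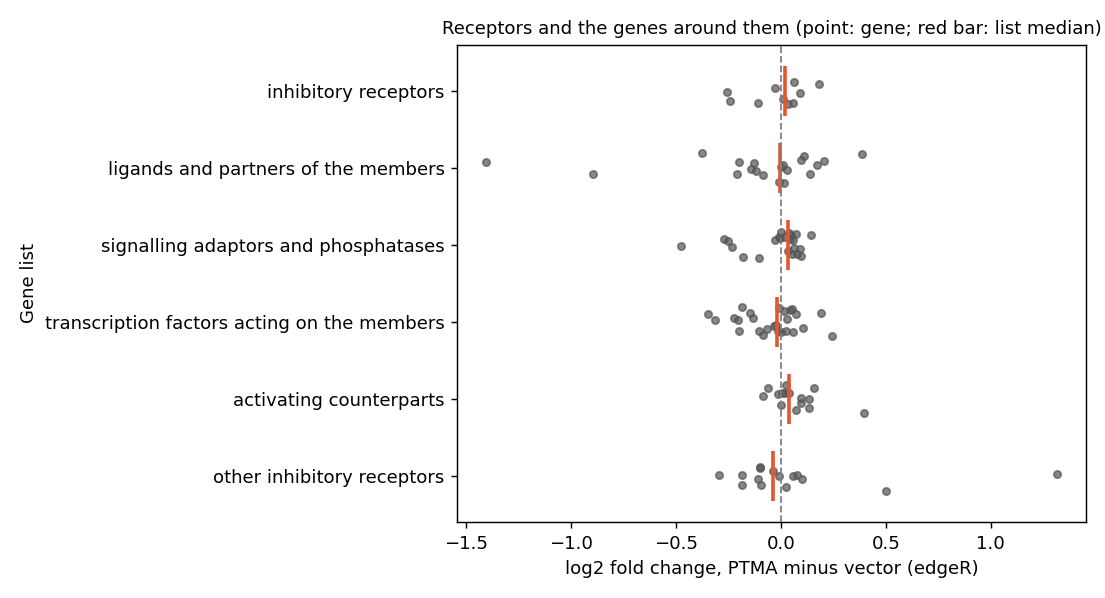
Log2 fold change, PTMA minus vector (horizontal), of every tested gene (point) in the 10 receptors and in 5 lists of genes around them (vertical), with list medians as red bars. The medians lie between -0.04 and 0.04, and no gene passed the test.

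The genes whose pattern over the 6 libraries came nearest to each member were found by the root mean square difference of log2 CPM centred on each gene's mean, among 8836 genes with a mean of at least 10 CPM. They were Gatad2a for Lag3 (difference 0.0100), Prr3 for Pdcd1 (0.0134), Pot1a for Tigit (0.0141), Med8 for Cd160 (0.00888), Hnrnpr for Ctla4 (0.0223), Egln3 for Cd200 (0.0197) and Tmbim6 for Btla (0.0115). For the scarce members the nearest genes were farther away, at 0.107 for Havcr2 (2010315B03Rik), 0.0784 for Cd244a (Cep350) and 0.0738 for Entpd1 (Lrch4). With 6 libraries and so many candidates, near patterns are common, and these names are given as a description only.

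Of other cell types, the 8 myeloid and dendritic markers with a row summed to 20.7 to 23.9 CPM in vector and 23.2 to 28.5 CPM in PTMA, with Csf1r, Itgam, Flt3 and S100a8 at 0 in some libraries. Of B cell genes, Ighm was abundant, at 942 ± 41.9 CPM in vector and 984 ± 36.1 CPM in PTMA. Cd79b was at 3.24 to 4.13 CPM in vector and 4.98 to 6.17 CPM in PTMA, and Ms4a1 at 0.290 to 0.434 and 0.0616 to 0.153 CPM. Cd79b was higher and Ms4a1 lower in PTMA, each without overlap, against 5.39% and 5.38% of all genes in these directions. Neither passed (edgeR, adjusted p = 0.951 for both). The lowest Ms4a1 value, 0.0616 CPM, was near the 0.0449 to 0.0458 CPM that a count of 0 allows in PTMA libraries. NK cell markers summed to 54.0 to 57.3 and 47.0 to 51.9 CPM, mostly Eomes, and Ncr1 was at 0 in all vector libraries. The stromal and endothelial list summed to 209 to 212 and 216 to 222 CPM, mostly Pecam1, which T cells express, with Col1a2, Col3a1, Dcn and Pdgfrb at 0 in some libraries. An oocyte list of 8 genes summed to 25.3 to 37.3 CPM in vector and 2.22 to 4.37 CPM in PTMA, and 1 of the 8, Gdf9, passed as lower (edgeR, adjusted p = 0.0397, against 0.0121% of all genes). The oocyte list was chosen with earlier results of these data known, so its share is a description only. Gdf9 passed in 8 of 14 alternatives. It did not pass without vector 1 (adjusted p = 0.194), vector 3 (0.0715) or PTMA 3 (0.153), with a replicate block (0.342), or without a filter on low values (0.443 with edgeR and 0.205 with limma). The part of these differences in the receptor values was not tested.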

How the data were processed

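Messenger RNA was measured by poly(A) RNA sequencing in 6 libraries, grouped by their titles into vector and PTMA (3 each). The extraction protocol mentions adipose RNA, at odds with the labelled cell type; the T cell markers are given in the report. Per the file headers, the authors' table holds a count column for each library, with unnormalized whole numbers. It also holds deposited FPKM; over 10141 well-counted genes these and the counts were related by 1 factor per library and a length per gene. StringTie 1.3.0, HISAT2 2.0, Bowtie 0.12.2 and mm8 are named, without roles, in the processing notes of the submitters. The table's coordinates equal those of GENCODE M21 (GRCm38) at both ends for 9 of the 10 members and at the start for Btla; exon numbers are from GENCODE. Which program counted the reads, and whether by strand, is not given in the sources used here.

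Counts were fitted with edgeR 4.0.16 in R 4.3.3 (TMM scaling, filterByExpr with a minimum count of 10, quasi-likelihood test, group as the only term, all 6 libraries), which left 16592 genes. P-values were adjusted over all of them (Benjamini-Hochberg, threshold 0.05). Log2 fold changes are PTMA minus vector, and CPM use the TMM factors. Intervals are the estimate with its standard error and the t quantile of the fit's degrees of freedom. The members and gene lists were chosen with earlier results of these data known. Besides the 10 members, the text names from each of 5 lists the genes past the threshold, the 2 with the smallest p-values and the 2 with the highest mean FPKM, and for each member its nearest gene (log2 CPM with a prior count of 2). List genes without a row were not analysed here. Promoters are from RefSeq (GRCm38.p6), with 9 of 10 members matched by symbol. Protein sequences were not used here. The alternatives were DESeq2 1.42.0, limma 3.58.1 on log2(FPKM + 1), other scalings, pseudocounts and filters, a replicate block, and leaving out each library. The fit was also run on simulated counts, with planted changes larger than those estimated for the members, and the outcome is not reported here. Libraries of a group differed by far more than sampling noise, so none was counted as a duplicate.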

Additional observations from a re-analysis of the deposited data

How the results depend on the processing

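That none of the 10 genes passed the test held in all 14 alternatives, with 0 called in each. The smallest adjusted p of any member was 0.214 (edgeR, Cd200 without vector 3). The number of genes changed over the whole table was 2. It was 42 with DESeq2, 1 with limma on log2(FPKM + 1), 1 with limma on log2(FPKM + 0.1), and 0 with limma on log2(FPKM + 1) without a filter, 0 with no filter on low counts and 0 with a replicate block. Leaving out each library gave 0 to 4; the cause was not tested. The median log2 fold change over the 10 genes was 0.02 in all, 0.02 to 0.06 leaving out each library, and -0.01 when all libraries were scaled to 1 sum. Of 136 values for single members, 129 kept their sign; 7 members never turned. Lag3 turned to -0.0185 with libraries scaled to the same sum and ran from -0.071 to 0.0781 leaving out each library, Ctla4 from -0.0899 to 0.0513 and Entpd1 from -0.265 to 0.0268. Of the 19 other named genes 14 never turned. With libraries scaled to the same sum, Cd2 was at -0.00188, Cd27 at -0.0096, Cd48 at -0.0135 and Cd96 at -0.00371. Leaving out each library gave -0.0334 to 0.119 for Cd2, -0.000482 to 0.0507 for Cd27, -0.0419 to 0.11 for Cd48, -0.0199 to 0.08 for Cd96 and -0.175 to 0.0327 for Klrc1. The deviations of libraries with the same number correlated at -0.12, -0.16 and -0.12, so the numbers gave no sign of pairing, and no library correlated best with its own number. Cd244a and Entpd1 were under a mean of 1 FPKM and were not tested by limma with that filter. Counting error was highest for Havcr2, Cd244a and Entpd1, at 4.45% to 6.40%, below the spread of their replicates.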
